A study of Mus musculus with 4 samples.

Results

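The members described here are broad regions enriched for DNMT3B (islands, called with SICER) that lie wholly inside a protein-coding gene with their midpoint past the middle of it, called distal islands. DNMT3B is a de novo DNA methyltransferase. Chromatin immunoprecipitation and sequencing (ChIP-seq) was used to map it in pulmonary metastases of 4T1, a metastatic mammary carcinoma line from BALB/c mice. An island was a member when its transcript accession began with NM_, both its edges lay inside the transcript, and its midpoint lay at 0.5 or more of the way from the gene start to the gene end, read along the gene's strand. The rule kept 2167 of the 8242 islands, in 1329 genes. A further 1627 islands lay inside genes with the midpoint before the middle, called proximal, so 3794 were wholly inside a gene.

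The series held 4 libraries from 4T1 lung metastases in BALB/c mice: 2 libraries from the DNMT3B immunoprecipitation and 2 from input chromatin, with lungs 3 and 5 in both groups. No genetic change or treatment is named for either group. The sources do not state whether the 2 lungs came from separate mice, or how far tumour tissue was separated from host lung. The deposited lists hold positions and gene names for the series as a whole, with no read count, height or value per library. The depth behind an island is therefore unknown, no spread between replicates exists, and no test over samples could be made. Exact 95% binomial intervals are given for shares, and they cover counting error only, since islands of a gene are not independent.

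In mammalian cells much DNA methylation lies in the bodies of transcribed genes. RNA polymerase II carries SETD2, which marks the histones behind it with H3K36 trimethylation, a mark that tends to build up toward the end of a gene. DNMT3B reads that mark through its PWWP domain, and gene-body methylation by DNMT3B is best known from embryonic stem cells. Neither the histone mark nor methylation was measured in this series.

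The genome letters under an island were read only where the listed gene start or end lay within 5 bp of that in RefSeq's GRCm38.p6 tables. This held for 59 member islands. Of these, 2 (3.39%, exact 95% interval 0.413 to 11.7) covered the start of another RefSeq transcript, and none covered a start of its own gene. Of the proximal islands, 3 of 63 such islands covered another gene's start and 4 covered a start of their own gene. The 2 members lay in Arhgef18, an exchange factor gene of small GTPases (chromosome 8, 3423800 to 3429799, midpoint at 0.53 of the gene), and in Cpt1a, which encodes the carnitine palmitoyltransferase of mitochondrial fatty acid import (chromosome 19, 3375800 to 3382599, at 0.90). The 250 bases before the start of the long noncoding RNA gene in each are shown because they are DNA inside a member island. They come from RefSeq, GRCm38.p6, minus strand, at chr8:3426855-3427104 for Gm46029 and chr19:3377491-3377740 for Gm36532, and capitals mark CG, the dinucleotide that DNMT3B methylates.
Gm46029: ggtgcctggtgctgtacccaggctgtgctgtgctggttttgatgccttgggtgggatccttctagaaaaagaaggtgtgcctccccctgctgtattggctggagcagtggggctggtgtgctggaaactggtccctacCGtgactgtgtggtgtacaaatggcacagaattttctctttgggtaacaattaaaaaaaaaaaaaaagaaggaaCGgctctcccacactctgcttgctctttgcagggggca
Gm36532: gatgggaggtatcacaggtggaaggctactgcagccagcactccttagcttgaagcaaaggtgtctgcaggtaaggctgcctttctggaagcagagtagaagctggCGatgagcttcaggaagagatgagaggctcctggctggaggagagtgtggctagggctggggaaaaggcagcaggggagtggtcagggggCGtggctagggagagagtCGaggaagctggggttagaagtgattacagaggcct

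These stretches held 2 and 3 CG dinucleotides (the motif reads the same on both strands). Over all 32851 windows of the same length in that table, 92.1% held at least 1 CG and the median was 6.

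Member islands spread from the middle to the end of genes, with fewer next to the end. In steps of 0.1 of the gene length, the stretches from 0.5 to 0.9 held 435, 439, 463 and 487 midpoints, and the last one held 343. Before the middle, the stretch next to the gene start held 172 midpoints and the others 315 to 390. The median relative position of members was 0.75, with quartiles of 0.62 and 0.86, and 1876 members (86.6%) lay entirely past the middle of the gene. An island that touches a gene edge is no member by the rule, so low numbers at either edge are partly set by it. Islands over a gene start but not its end numbered 960, and islands over a gene end but not its start 769.

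**Figure D1:**
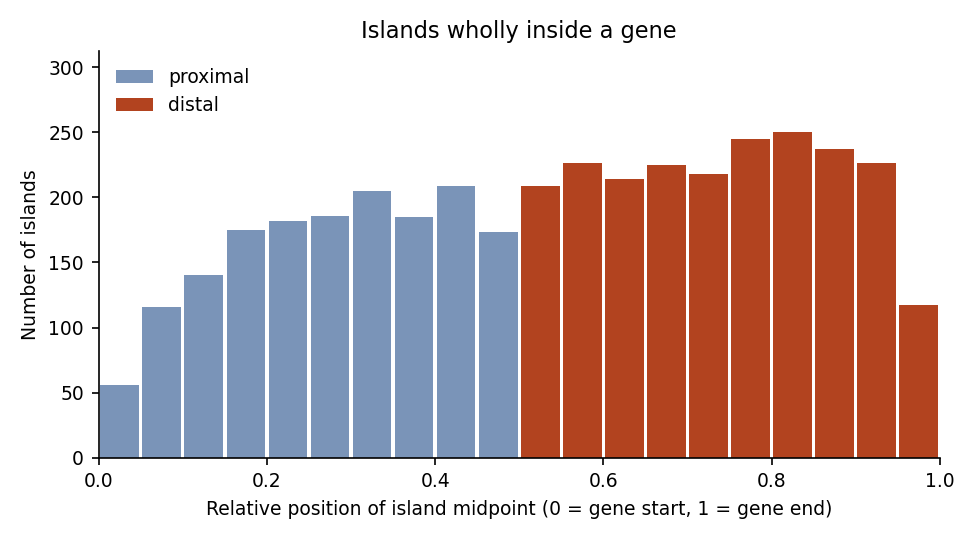
Number of islands wholly inside a gene (vertical axis) by the relative position of their midpoint in 20 bins (horizontal axis, 0 at the gene start and 1 at the gene end), with the 1627 proximal islands in blue and the 2167 distal islands in red. Counts are low in the bins at both gene edges, with 56 islands in the first bin and 117 in the last.

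The median distance from a member's nearer edge to the gene end was 10.1 kb (quartiles 3.77 and 22.7 kb). Of the members, 182 (8.40%) came within 1 kb of the gene end and 671 (31.0%) within 5 kb, while 61 lay over 100 kb from it. Proximal islands lay a median 11.9 kb from the gene start, with 119 (7.31%) within 1 kb and 430 (26.4%) within 5 kb. The members nearest to a gene end were those of Plekho2, with 10 bp between island and gene end, of Irf3, an interferon regulatory factor, with 19 bp, and of Rab11fip3, an effector of the recycling GTPase Rab11, with 20 bp. Island edges move in steps of 200 bp, so these 3 distances do not separate an island inside the gene from one that crosses its end. At the middle of the gene, the closest members were in Pcnx2 (named Pcnxl2 in the list, 0.500003), Zmiz1 (0.5007) and Ltbp2 (0.5011). The closest islands left out were in Nup133 (0.49989), Bmp7 (0.49988) and Gpsm1 (0.49985).

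Members were mostly a few kilobases wide. Their median width was 4000 bp (exact 95% interval of the median 3800 to 4200), with quartiles of 2600 and 6200 bp, a minimum of 200 bp and a maximum of 49800 bp, and together they covered 10.6 Mb. Proximal islands had a median of 4400 bp (4200 to 4600), and islands not wholly inside a gene 5400 bp (5200 to 5600). Widths of 10 kb or more were found for 156 members (7.20%), 169 proximal islands (10.4%) and 808 of the 4448 others (18.2%). An island must fit inside its gene to be a member, which bounds its width, and the differences between these classes were not tested. Among members the median width was 4400 bp from 0.5 to 0.6 of the gene and 3400 bp from 0.9 to the end. Proximal islands were likewise narrower at the gene edge, with 3600 bp from the start to 0.1 and 4400 to 4800 bp from 0.1 to 0.5.

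**Figure D2:**
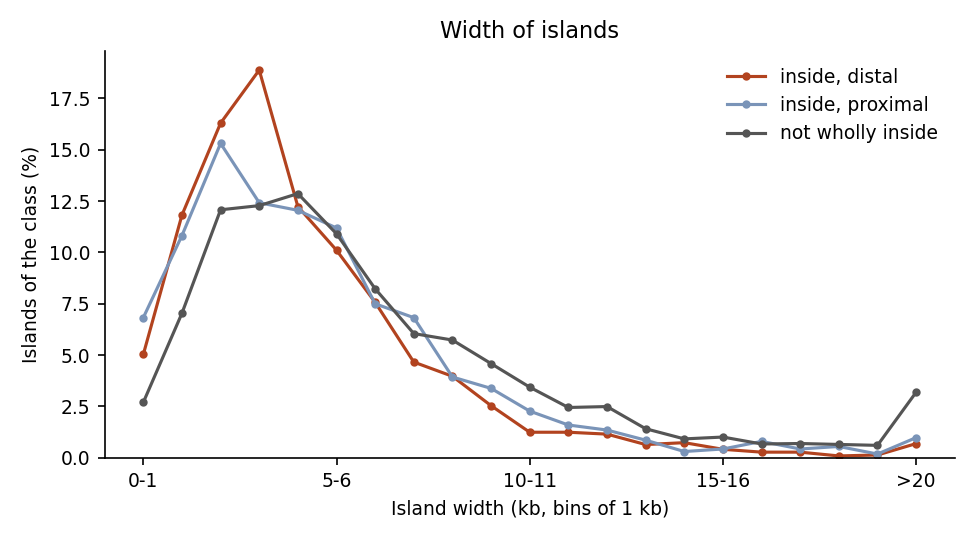
Share of islands (vertical axis, percent of the class) by island width in bins of 1 kb (horizontal axis, last point over 20 kb), for distal islands (red), proximal islands (blue) and islands not wholly inside a gene (grey). Members peak at 3 to 4 kb (18.9%), and from 8 kb on the grey line lies above both others except at 16 to 17 kb, where proximal islands are higher.

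Of the 10 widest members, 8 are described, with widths of 21200 to 35400 bp. Bahcc1, a chromatin protein gene, held 35400 bp on chromosome 11 from 120111400 to 120146799, 59.6% of the length of the gene. Osbp2, an oxysterol-binding protein gene, held 29400 bp (chromosome 11, 3610000 to 3639399), and Sh3bp4, whose product acts in endocytosis, 28000 bp (chromosome 1, 91008000 to 91035999). Mllt1, which encodes the acetyl-lysine reader ENL of elongation complexes, and Txnrd2, the mitochondrial thioredoxin reductase gene, held 25400 bp each. In Mllt1 the island ended 0.367 kb before the gene end. Runx1, a transcription factor of blood cells, held 22400 bp (chromosome 16, 92633400 to 92655799), Sbno2 21400 bp, and Camk2b, a calmodulin-dependent kinase gene, 21200 bp.

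In short genes a single member could span most of the gene. The largest shares were 90.3% of Ggt6, a gamma-glutamyltransferase gene of 2.88 kb, and 84.2% of Six5, a homeobox gene of 3.80 kb. Next came 83.7% of Slc16a3, the gene of the lactate transporter MCT4, 80.5% of Pcgf2, a Polycomb gene, and 79.1% of Dact2, a Wnt modulator gene. For these genes the relative position, 0.50 to 0.54, says little about which side of the gene was enriched.

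Most genes with a member held just 1. Of the 1329 genes, 888 (66.8%) had 1 member, 237 had 2 and 119 had 3. At least 5 members were found in 44 genes (3.31%), which held 284 of the islands (13.1%). Neighbouring members of a gene were often close: of 838 gaps, 445 (53.1%) were at most 2 kb, the median was 1.7 kb, and the smallest was 600 bp. When islands up to 2 kb apart were joined, a choice made after seeing the data, 1722 stretches remained with a median span of 4700 bp. Stretches of 20 kb or more then numbered 62, against 16 islands before.

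The gene with most members was Mad1l1, whose product MAD1 acts in the spindle assembly checkpoint. Its 13 members lay on chromosome 5 between 140488600 and 140610799, from 0.62 to 0.98 of the gene, with widths of 1400 to 15600 bp, and 12 proximal islands lay in the same gene. Rbfox3, a splicing factor gene known as a neuronal marker, had 11 members between 118365200 and 118560399 on chromosome 11, the widest of 20600 bp, and 10 proximal islands. Sorcs2, a sortilin-related receptor gene, had 10 members and 8 proximal islands, and Sdk2, a cell adhesion gene, had 10 and 5. Prex1, an exchange factor for Rac, had 10 members and 4 proximal islands in a gene of 147 kb. Each of these 5 genes carried islands on both sides of its middle.

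Sh3pxd2a encodes Tks5, the scaffold of invadopodia, the protrusions with which tumour cells degrade matrix. It had 9 members on chromosome 19 between 47339800 and 47435599, with a summed width of 62.8 kb in a gene of 204 kb, and 10 proximal islands. Trappc9, a vesicle tethering gene on chromosome 15, had 9 members and 8 proximal islands. The 9 members of Ttc28, on chromosome 5 between 111605400 and 111714399, all lay from 0.73 of the gene onward, and it held no proximal island. Slc39a11, a zinc transporter gene, had 8 members and 10 proximal islands. Of these 9 genes, Ttc28 was the 1 without a proximal island.

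**Figure D3:**
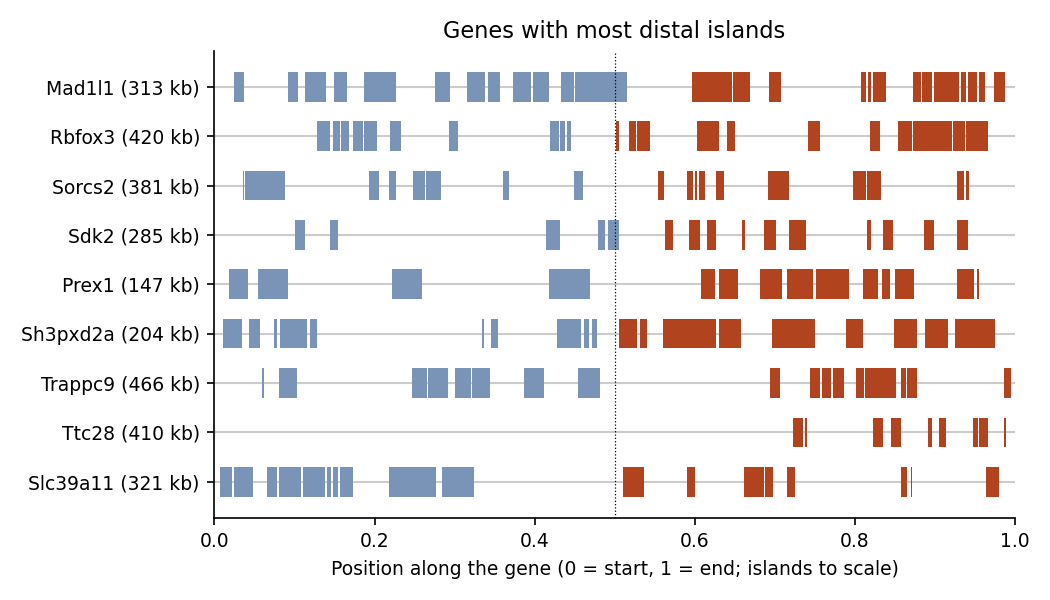
Islands drawn to scale along 9 of the 10 genes with most members (horizontal axis, position along the gene from 0 at the start to 1 at the end; gene length in kb beside each name), with members in red, proximal islands in blue and the middle dotted. Mad1l1 carries 13 members and Slc39a11 8, and Ttc28 has no blue island.

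Genes with a member held a proximal island more often than all protein-coding genes did, although most held none. Of the 1329 genes, 478 (35.97%, exact 95% interval 33.4 to 38.6) also held a proximal island, and 851 did not. Of all 21900 protein-coding genes, 1002 (4.58%) held one. Genes with a member were longer (median listed length 42.9 kb, against a RefSeq median of 17.1 kb for all protein-coding genes). The part of length was not tested. An island over the gene's own start, whether or not it also covered the end, was listed for 261 of the 1329 genes (19.6%). A narrower count, of islands over the start but not the end, gave 957 of 3749 listed genes with an NM_ transcript. These counts are not of the same kind. Of islands with an NM_ transcript, 1166 covered their own start, 960 of them without the end. In the other direction, 524 genes held proximal islands and no member. Col17a1, a hemidesmosome collagen gene, and Dab2ip, a Ras GTPase-activating tumour suppressor gene, had 4 members each and no proximal island.

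Genes with a member were long. Their median listed length was 42.9 kb (quartiles 23.1 and 86.1 kb), where all 21900 protein-coding genes of the RefSeq table had a median of 17.1 kb. Of all protein-coding genes, 1327 (6.06%) had a member, 1002 (4.58%) a proximal island and 1851 (8.45%) either. By RefSeq length, the share was 0.504% below 10 kb, 5.84% from 10 to 30 kb, 11.2% from 30 to 50 kb, 12.5% from 50 to 100 kb, 13.8% from 100 to 300 kb and 8.80% above. An island can be wholly inside only a gene longer than itself, so part of this order follows from the rule. The median length of a list's genes, and its count among genes of 50 kb or more (long genes), are therefore given beside its share. Both use RefSeq length, and the listed transcript can be shorter, as in Pik3cd (14.1 kb).

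Of 21 gene lists, 16 had a share of genes with a member above the 6.06% of all protein-coding genes, and 2 had none. The lists were chosen with earlier results of these data known, so this count may follow in part from that choice. No test of a list was made. Among genes of 50 kb or more the share of all protein-coding genes was 12.6%.

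Genes of matrix and adhesion had the highest shares when length is not considered. Of 32 genes of cytoskeletal linkers and focal adhesion, 14 had a member (43.8%, exact 95% interval 26.4 to 62.3, median length 128 kb), and of the 24 long ones 10 did (41.7%). Myh9, the gene of nonmuscle myosin IIA, had 3 members on chromosome 15, of 4800, 14800 and 20000 bp, and the last ran from 77618800 to 77638799. Ank1, an ankyrin gene, had 4 members of 4000 to 13000 bp within 38.8 kb of chromosome 8, the first starting at 24214800. Tns3, a tensin gene, had 5, and Tns2 had 1 of 9600 bp. Flna, the filamin A gene, held both members found on the X chromosome, of 3600 bp each. Collagens, laminins and integrins had 15 of 37 (40.5%, 24.8 to 57.9, median length 63.7 kb), and 9 of the 21 long ones (42.9%). The neighbouring basement membrane collagen genes Col4a1 and Col4a2 had 2 members each, the widest of 19800 bp in Col4a2 (chromosome 8, 11379400 to 11399199). Itgb4, the integrin subunit of hemidesmosomes, had 1 of 16200 bp, and the widest of the 4 in Col17a1 measured 12400 bp. All 15 genes of that list with an inner island had a member.

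Guidance receptors and ion channels also held members. Semaphorins, plexins and Eph receptors had 11 of 39 (28.2%, 15.001 to 44.9, median length 39.8 kb), but 2 of the 16 long ones (12.5%). Plxnd1, a plexin gene, had 3 members, the widest of 15000 bp from 115915800 to 115930799 on chromosome 6, Nrp2, a neuropilin coreceptor gene, 1 of 12000 bp, Plxna1 2 and Sema5b 1 of 8000 bp. Voltage-gated ion channels had 10 of 32 (31.2%, 16.1 to 50.008, median length 151 kb), and 10 of the 27 long ones (37.0%). The calcium channel gene Cacna1a had 6 members of 1600 to 5200 bp, and Cacna1g, another of the family, had 3. Of the 20 receptor tyrosine phosphatase genes, 19 of them long (median length 164 kb), Ptprf alone had members, 3 of 1800 to 4400 bp, although 3 others held proximal islands.

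In Wnt signalling 16 of 47 genes had a member (34.0%, exact 95% interval 20.9 to 49.3, median length 33.6 kb), and 5 of the 12 long ones did (41.7%). The coreceptor gene Lrp5 had 5 members on chromosome 19 between 3593600 and 3630999. The ligand gene Wnt7b had 2, one of 8400 bp and one of 200 bp, the kinase gene Csnk1d 1 of 8000 bp, and Tcf7l2, a transcription factor at the end of the pathway, 1 of 6600 bp. Notch signalling had 6 of 33 (18.2%, 6.98 to 35.5, median length 35.9 kb) and 1 of its 10 long genes (10%), and 5 other Notch genes held proximal islands and no member. The receptor gene Notch1 had 3 members, the widest of 10600 bp from 26319000 to 26329599 on chromosome 2, and Notch2 had 4. The coactivator gene Maml1 had 2 and Dtx2 1.

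The other signalling lists ran from 3.85% to 20.7%. NF-kB signalling had 6 of 29 (20.7%, 7.99 to 39.7, median length 29.0 kb) and 3 of its 8 long genes (37.5%): the kinase gene Ikbkb held 11200 bp ending 724 bp before the gene end, Map3k14, the gene of the kinase NIK, 3 members, the subunit gene Nfkb1 1 of 8800 bp and Tnip1 2. In IL6 and STAT3 signalling 1 of 26 had a member (3.85%, 0.0973 to 19.6, median length 30.4 kb, none of 9 long ones), the receptor gene Il6ra with 3200 bp, while Lif, Stat3 and Ptpn11 held proximal islands. PI3K and Akt signalling had 5 of 32 (15.6%, 5.28 to 32.8, median length 68.8 kb), and 5 of its 20 long genes (25%). Rptor, the gene of the mTORC1 subunit raptor, had 6 members of 2600 to 15000 bp and 6 proximal islands, and the kinase genes Mtor and Pik3cd and the inhibitor gene Tsc1 had 1 each of 2000 to 2600 bp. TGF-beta and BMP signalling had 5 of 35 (14.3%, 4.81 to 30.3, median length 68.5 kb), all with proximal islands too, and 4 of its 20 long genes (20%). The latent TGF-beta binding protein gene Ltbp2 had 5 members that together span 40.8 kb, Smurf1, a ubiquitin ligase gene, 3, and Smad3 and Bmp7 2 each.

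Genes of chromatin and DNA methylation held members as well. Of 20 corepressor and deacetylase genes 4 had one (20%, exact 95% interval 5.73 to 43.7, median length 43.4 kb, 3 of 10 long ones), and among them Hdac4 had 4 members of 4600 to 7600 bp, and Hdac7 and Hdac5 had 1 each. In the DNA methylation machinery it was 4 of 21 (19.0%, 5.45 to 41.9, median length 38.3 kb), and 3 of the 8 long ones (37.5%). Dnmt1, the maintenance methyltransferase gene, had members of 11600 and 1000 bp on chromosome 9, and Uhrf1, its recruiting factor, 3 of 1400 to 3800 bp on chromosome 17. Tet3, a gene of 5-methylcytosine oxidation, had 1 of 6800 bp and Dnmt3a 1 of 1400 bp, and Dnmt3b had none. Writers, erasers and readers of H3K36 methylation had 3 of 24 (12.5%, 2.66 to 32.4, median length 43.3 kb, 2 of 11 long ones): the demethylase genes Kdm4b with 3 members, the widest of 16800 bp, and Kdm2b with 1, and Phf19 with 1 of 7600 bp. Setd2 was not among them.

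Tumour suppressors had 9 of 38 (23.7%, exact 95% interval 11.4 to 40.2, median length 55.2 kb) and 8 of 20 long ones (40%), among them the chromatin remodelling genes Smarca4 with 9200 bp and Arid1a with 4800 bp, Nf2 with 5400 bp, and Dab2ip. Epithelial-mesenchymal transition genes had 6 of 33 (18.2%, 6.98 to 35.5, median length 15.1 kb), and 2 of the 10 long ones (20%). The cadherin genes Cdh1 and Cdh3, neighbours on chromosome 8, had 1 member of 7200 bp and 2 of 3000 and 5600 bp, Ovol1, an epithelial transcription factor gene, 1 of 4800 bp, and Twist2 1 of 4000 bp.

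Shares in the lists of host cell markers ran from 0 to 16.7%. Lung epithelium markers had 2 of 22 (9.09%, exact 95% interval 1.12 to 29.2, median length 11.4 kb, 1 of 4 long ones), Etv5 with 3 members and the surfactant gene Sftpb with 4800 bp. Endothelial and stromal markers had 3 of 18 (16.7%, 3.58 to 41.4, median length 39.1 kb, 1 of 5 long ones), Col1a1 with 6200 bp, Flt1 with 5800 bp and Cdh5 with 2400 bp. None of 24 immune cell markers (upper limit 14.2%, median length 10.54 kb, 4 of them long) and none of 57 clustered protocadherins (upper limit 6.27%, median length 90.3 kb, 31 of them long) had a member. Of 24 housekeeping genes 1 had a member (4.17%, median length 6.88 kb, none of 50 kb or more), Gpi1 with 5200 bp. What cells the enriched DNA came from was not tested.

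**Figure D4:**
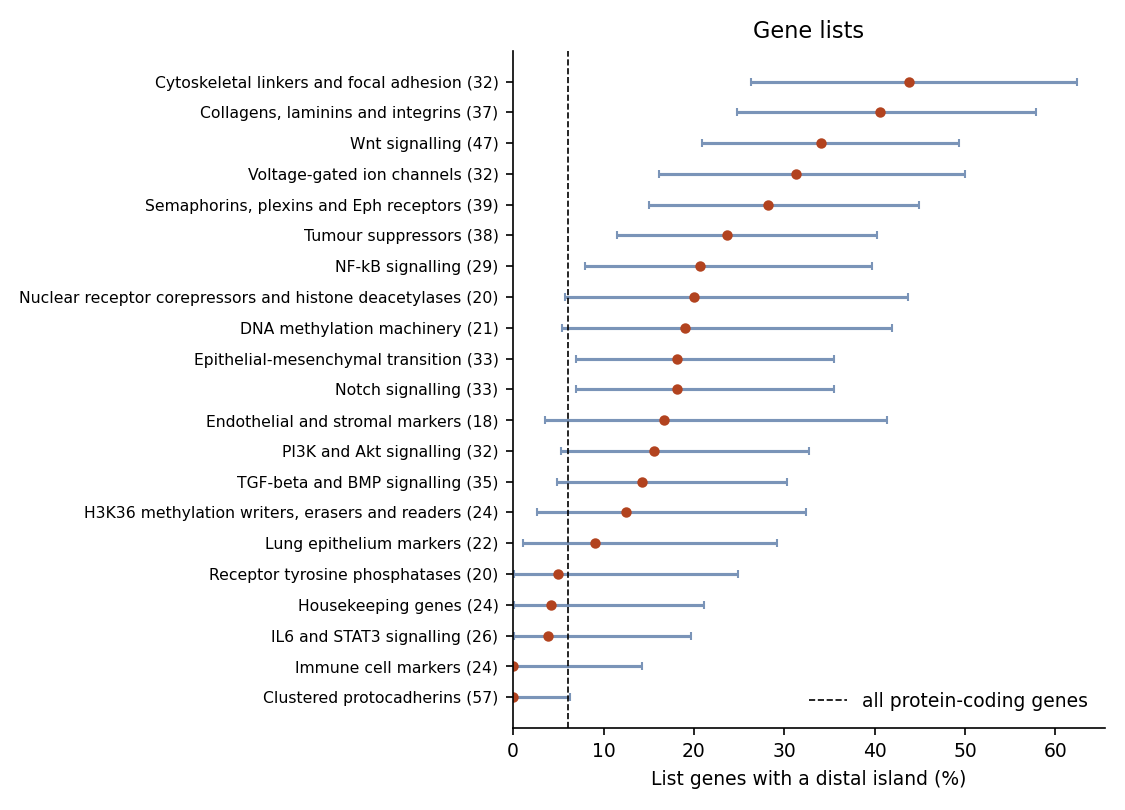
Share of genes with a distal island (horizontal axis, percent) in each of the 21 gene lists, with the number of genes in brackets; points are shares, bars exact 95% binomial intervals and the dashed line the 6.06% of all protein-coding genes. Cytoskeletal linkers (43.8%) and collagens, laminins and integrins (40.5%) stand at the top, and 2 lists stand at 0. The lists were chosen with earlier results known and differ in gene length.

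Few members held a narrow region of the second list, called with MACS. Of the 2167 members, 9 shared at least 1 bp with a MACS region (0.415%, exact 95% interval 0.190 to 0.787), where 397 of all 8242 islands did (4.82%). Of the proximal islands 11 of 1627 did (0.676%, 0.338 to 1.21), while islands over a gene start but not its end reached 16.1% (13.9 to 18.6) and those over a gene end but not its start 5.20% (3.74 to 7.02). Members were narrower than islands not wholly inside a gene, and the part of width in this difference was not tested. Of the 872 members at or above the median width of all islands 5 held a region (0.573%), and of all islands that wide 6.94% did. Where genes are placed within 1 kb of GRCm38, none of 106 members held a region (3 counts would be 2.83%, and the exact upper limit is 3.42%), against 97 of 325 islands not wholly inside a gene (29.8%). Of all islands not wholly inside a gene, 377 of 4448 held one (8.48%), a lower share than where genes are so placed. Of those 106 members, 61 lay on chromosome 16, 23 on 19 and 20 on 8. The chromosomes of the 325 other islands are not given here, so the part of chromosome in this contrast was not tested. The MACS regions follow rounded positions, and whether both lists stand in the same positions throughout was not settled, and its part in the shares over all islands was not tested.

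**Figure D5:**
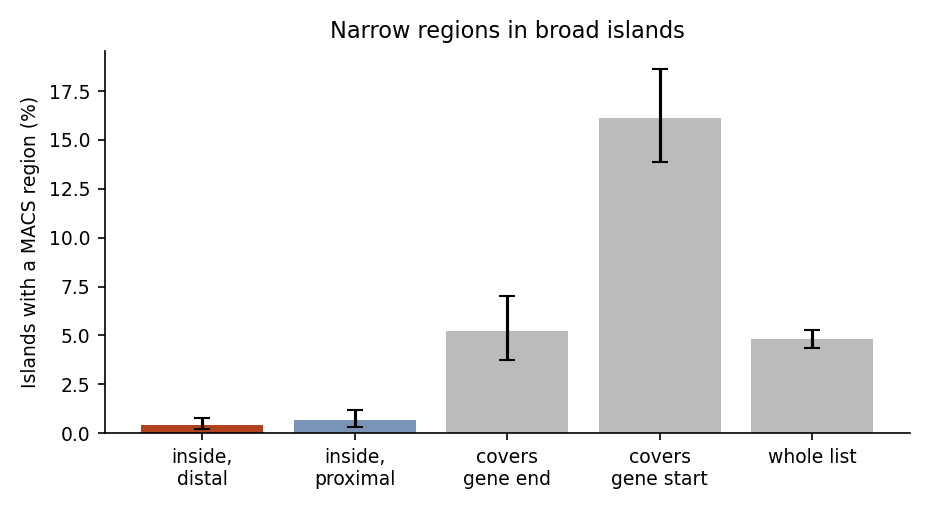
Share of islands with a MACS region (vertical axis, percent) for distal islands, proximal islands, islands over a gene end but not its start, over a gene start but not its end, and in the whole list; bars are shares and whiskers exact 95% binomial intervals. Members stand at 0.415% and islands over a gene start at 16.1%.

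The 9 members with a narrow region lay in 9 genes, and in each the MACS list named the same gene. The widest, of 12000 bp, was in Lrrc8a, a subunit gene of the volume-regulated anion channel, on chromosome 2 from 30106200 to 30118199, with the region at 30111700. Slc16a3 held a region described as intronic at 120812000 on chromosome 11, 2.20 kb from the gene start, and Syt2, a synaptotagmin gene, one from 136605000 to 136606000 on chromosome 1. Rasa4, a Ras GTPase-activating protein gene, and Src, the tyrosine kinase gene, held regions at 136578000 on chromosome 5 and from 157283000 to 157284000 on chromosome 2. In Nrip1, a corepressor gene, the region from 76293600 to 76293700 on chromosome 16 lay 79.6 kb from the gene start, in a member that ended 0.694 kb before the gene end. The others were in the transcription factor genes Zfp423 (90306900, chromosome 8) and Irx3 (94323900 to 94324200, chromosome 8) and in Ankrd35 (96488800, chromosome 3). Counted by gene, 179 of the 1329 genes with a member had a MACS region centred within 1 kb of a gene start (13.5%, exact 95% interval 11.7 to 15.4). No island at that start was required, so this share is not of the same kind as the shares of islands above. The same held for 11.8% (9.19 to 14.9) of the 524 genes with proximal islands and no member, and 10.4% (9.10 to 11.9) of the 1896 listed genes with no inner island. These intervals overlap.

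No member covered the start of another gene in the list, and none came within 1 kb of one (0 of 2167, where 3 counts would be 0.138% and the exact upper limit is 0.170%). Within 10 kb of such a start lay 35 members (1.62%) and 25 proximal islands (1.54%). Another listed start was covered by 1 proximal island and by 254 of the 4448 islands not wholly inside a gene. Each island is paired with 1 gene, by a rule the sources do not state, and genes far from any island are not listed, so starts of unlisted genes were not counted. Whether the pairing rule sets the 0 was not tested. Against RefSeq starts, 2 of 59 members covered the start of another transcript.

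Chromosomes 5, 11, 2 and 8 held 1015 members (46.8%), where they held 46.9% of all islands, 49.7% of proximal islands and 26.0% of protein-coding genes. Chromosome 5 had most, with 281 members in 153 genes, and members were found in 12.1% of its protein-coding genes, against 12.4% on chromosome 8 and 9.63% on chromosome 11. At the other end, chromosome 13 had 18 members, chromosome 18 had 11 in 8 genes, among them Celf4 with 3 and Nfatc1 with 2, and the X had the 2 in Flna. Single chromosomes differed from the whole list. Chromosome 5 held 13.0% of members (exact 95% interval 11.6 to 14.5), 10.7% of all islands and 12.2% of proximal islands. Chromosome 11 held 12.2% (10.8 to 13.6), 14.5% and 14.2%, and chromosome 12 held 4.98% (4.11 to 5.99), 3.85% and 3.93%. The proximal share thus lay inside the members' interval on chromosome 5 and outside it on chromosomes 11 and 12. These differences were not tested. Genes on the plus strand held 1058 members and genes on the minus strand 1109. Copy number was not measured in this series.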

How the data were processed

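The authors deposited 2 lists for the whole series, and their columns hold base positions and distances in bp. Per the submitters' processing notes, Bowtie2 (version given as 2.10), MACS (1.4) and SICER were used, and mm10 is named as the build. The sources do not state how libraries were combined. Listed genes lay within 1 kb of GRCm38 at both ends for 106 of the 2167 members, so positions are printed as deposited, with build unknown, and none was converted. Among these genes 54.4% of inner islands were distal (exact 95% interval 47.1 to 61.5), against 57.1% of all. Per the file headers, no list carries a score or p-value. The name of the island list marks it as a top selection of the SICER calls. The listed overlap lengths of all 8242 islands matched genes extended by 10 kb, so the whole list may hold only islands near genes.

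Genes were matched to RefSeq by transcript accession, symbol or unique synonym (2166 of 2167 members, 1 of them listed under a spreadsheet date). The 4304 MACS lines gave 1704 distinct regions, rounded to 6 digits. A region end given as unknown was set to the region start, and a region with equal start and end counted as a single position. With regions widened by 500 bp, 10 members (0.461%) held one. No test was made. Medians and shares were computed in Python 3.11.15 with exact 95% intervals (scipy 1.17.1), and the classification was tested on simulated data. The members and gene lists were chosen with earlier results of these data known. Named were the 10 genes with most members, the 10 widest, the 5 with most MACS regions (ties: wider), the 3 nearest the gene end, 3 on each side of the threshold, the 5 filling most of their gene and up to 4 genes per list by island width. Other genes were named after their values were seen. Some genes and 1 list that this rule would name are not reported here.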

Additional observations from a re-analysis of the deposited data

How the results depend on the processing

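The number of members and of their genes stayed within 1.5 times with a threshold of 0.6 (1732 islands, 1136 genes), with whole islands past the middle, with all transcripts and with islands joined, and fell to 106 islands in 72 genes where genes are placed as in GRCm38. There the share with a MACS region was 0. It stayed between 0.386% and 0.573% under the other 5 alternatives. The median width was 4600 bp for the widest island of each gene and 4700 bp after joining. The median distance to the gene end, 12738 bp from the midpoint, was 10074 bp from the nearer edge and 7664 bp for the nearest island of each gene. Of 677 list genes 19.8% had a member, 27.2% any inner island, and 25.7% among genes of 50 kb or more. With midpoints inside the gene, 38.7% of genes had distal and proximal islands. Chromosomes 5, 11, 2 and 8 held 43.3% of genes with a member. No paired analysis was possible because neither list gives separate libraries, so none could be left out either. Joining was chosen after seeing the data. Depth is unknown, so an island not listed cannot be told from one below detection. The island list is also labelled as a top selection of the SICER calls. An island not listed may therefore have been called and left out.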
